A study of Mus musculus with 9 samples.

Results

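RNA-Seq read counts of 7 receptor genes of the SLAM and CD2 family were followed in mouse bone marrow derived macrophages (BMDMs) that were left untreated or were given medium conditioned by lung adventitial fibroblasts. The genes were Cd2, Cd48, Cd84, Slamf7, Slamf8, Slamf9 and Ly9. They were chosen by name, with the levels and differences of these genes in the same 9 libraries already known, and they make up 7 of the 53465 genes in the count table. Every value of a member given here is therefore a description of these libraries, and no p-value is given for a member. All 7 were among the 11950 genes that passed the filter on low counts, which asked for a CPM (reads scaled to the library total) above 1 in at least 3 libraries. Cd2 passed only through the 3 libraries of the PH-CM group, and Slamf8 passed through 2 untreated and 2 CO-CM libraries, while the other 5 members lay above the limit in all 9 libraries.

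The BMDMs came from male wild-type C57BL/6 mice (C57bl6/J in the methods) and were grown for 5 to 10 days with 50 ng/ml of the macrophage growth factor CSF1. The 9 libraries fell into 3 groups of 3. UNX BMDMs were untreated, CO-CM BMDMs received medium conditioned by pulmonary artery adventitial fibroblasts of control neonatal calves, and PH-CM BMDMs received medium conditioned by the same kind of fibroblast from age-matched calves with hypoxia-induced pulmonary hypertension. The conditioned media were pooled from several fibroblast populations, so that the 3 libraries of a group repeat the macrophage culture rather than the calf, and the fibroblasts were bovine while the macrophages were murine. One label gives a treatment of 16 h and another one of 24 h, and the methods of the study name a time between them. The comparisons ask which transcripts of the macrophages differ with fibroblast medium, and which of them differ by the disease state of the donor calf.

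SLAM family receptors are single-pass members of the immunoglobulin superfamily on blood cells. Most of them bind a copy of themselves on a neighbouring cell, whereas CD48, which is held in the membrane by a lipid anchor, is the ligand of CD2 in the mouse and of CD244 (2B4). The tails of CD84, SLAMF7, LY9 and CD244 carry tyrosine motifs that are phosphorylated by Src family kinases. Depending on the receptor, these motifs then recruit the small adaptors SAP (Sh2d1a) or EAT-2 (Sh2d1b1), or phosphatases. Not every one of these receptors binds both adaptors. SLAMF8 and SLAMF9 have short tails without these motifs. In macrophages the family is best known for phagocytosis through SLAMF7, for control of the NADPH oxidase by SLAMF8, and for adhesion between leukocytes, while CD2 is known chiefly as an adhesion receptor of T cells and NK cells.

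Of the members, Slamf7 and Slamf9 differed from UNX in opposite directions in both media. The 250 bases before their RefSeq start sites are shown for that reason (GRCm38.p6, read 5′ to 3′ on the strand of the gene). Capitals mark the letters TGANTCA, the AP-1 motif, in Slamf7 and the letters GAGGAAG, an ETS motif of the kind bound by PU.1, in Slamf9.
Slamf7, minus strand, chr1:171649000-171649249: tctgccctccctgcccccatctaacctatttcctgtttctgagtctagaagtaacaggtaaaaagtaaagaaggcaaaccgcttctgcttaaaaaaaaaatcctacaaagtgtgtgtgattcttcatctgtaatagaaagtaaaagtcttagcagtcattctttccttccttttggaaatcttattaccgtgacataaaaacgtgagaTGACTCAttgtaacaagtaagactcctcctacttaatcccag
Slamf9, plus strand, chr1:172475110-172475359: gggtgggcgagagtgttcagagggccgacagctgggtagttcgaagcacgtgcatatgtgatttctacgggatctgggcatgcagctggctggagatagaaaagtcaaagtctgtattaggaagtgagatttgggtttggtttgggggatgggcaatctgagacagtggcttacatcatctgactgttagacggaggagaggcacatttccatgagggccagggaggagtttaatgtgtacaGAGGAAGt
RefSeq promoters were at hand for 5 of the 7 members, and Cd2 and Ly9 were not among them. In windows of 250 bases before to 50 bases after the start, searched on both strands, the AP-1 motif lay at position -42 of Slamf7, -229 of Cd84 and 9 of Slamf8, and it is found in 7.81% of all 32851 promoters of this length. The ETS motif lay at position -8 of Slamf9 and in no other of the 5 windows, and it is found in 13.6% of all promoters. The letters GAAANNGAA, an interferon regulatory factor motif, lay at positions -29 and 33 of Cd84 and at -14 of Slamf8, against 8.56% of all promoters. The window of Cd48 held none of these letters. The Slamf7 window lies inside the gene as annotated by GENCODE, which on the minus strand begins at chr1:171653035. Its positions therefore hold for the RefSeq start alone. Such matches describe the sequence only.

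Library totals ranged from 62017933 to 84314201 counted reads, with medians of 73898895 in UNX, 69264567 in CO-CM and 64348861 in PH-CM. The label of the cells was checked against marker genes. All 8 macrophage markers, such as Adgre1 and Csf1r, were expressed, and their summed level was 11801 to 12595 CPM in UNX, 18984 to 19939 in CO-CM and 21428 to 23236 in PH-CM. Of these 8 markers, 7 rose in PH-CM against UNX, and 5 rose and 1 fell in CO-CM against UNX (edgeR quasi-likelihood test with an FDR limit of 0.05 and a fold change limit of 1.2). In these 2 comparisons 31.3% and 28.0% of all tested genes rose, and 31.7% and 28.9% fell. In PH-CM against CO-CM, 4 of the 8 rose and 0 fell, beside 12.2% and 15.0% of all tested genes. Fibroblast markers, Col1a1 and Col1a2 in the main, summed to 193 to 245 CPM in UNX, 261 to 313 in CO-CM and 243 to 331 in PH-CM. B cell and dendritic cell markers summed to at most 1.02 CPM in any library, neutrophil markers to at most 4.45 CPM and mast cell and basophil markers to at most 3.34 CPM. The part of these marker levels in the results on the receptors was not tested. In bulk samples of this kind, fewer cells that express a gene and less RNA per cell cannot be told apart.

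Per length of transcript, Cd84, Cd48 and Ly9 made up most of the family in BMDMs. In deposited RPKM, which corrects for exon length and library total, these 3 genes held 88.7% to 90.1% of the summed level of the 7 members in each of the 9 libraries. The summed level itself was 235 to 256 RPKM in UNX, 362 to 372 in CO-CM and 313 to 317 in PH-CM, so that the 3 groups did not overlap. In UNX, Cd84 at 75.6 to 94.0 RPKM and Cd48 at 79.8 to 84.3 RPKM overlapped at the top, Ly9 followed at 48.9 to 55.1 RPKM, Slamf9 at 12.6 to 16.8 RPKM and Slamf7 at 9.56 to 13.3 RPKM overlapped in the middle, and Slamf8 at 0.189 to 0.681 RPKM and Cd2 at 0 to 0.0272 RPKM came last.

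The order of the members changed with the medium. In CO-CM, no 2 neighbours in the order overlapped: Cd84 stood at 121 to 128 RPKM, Ly9 at 101 to 111, Cd48 at 91.6 to 99.7, Slamf7 at 35.7 to 38.4, Slamf9 at 1.98 to 3.51, Slamf8 at 0.181 to 0.628 and Cd2 at 0.101 to 0.149. In PH-CM, Cd48 at 87.5 to 91.0 RPKM stood above Ly9 at 72.1 to 76.2 RPKM, the reverse of their order in CO-CM. Cd2 at 1.27 to 1.71 RPKM overlapped there with Slamf9 at 1.10 to 1.37 RPKM, and both lay above Slamf8 at 0.131 to 0.273 RPKM. The ratio of Slamf7 to Slamf9 in RPKM within a library was 0.570 to 1.03 in UNX, 10.2 to 19.4 in CO-CM and 20.6 to 25.9 in PH-CM.

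**Figure D1:**
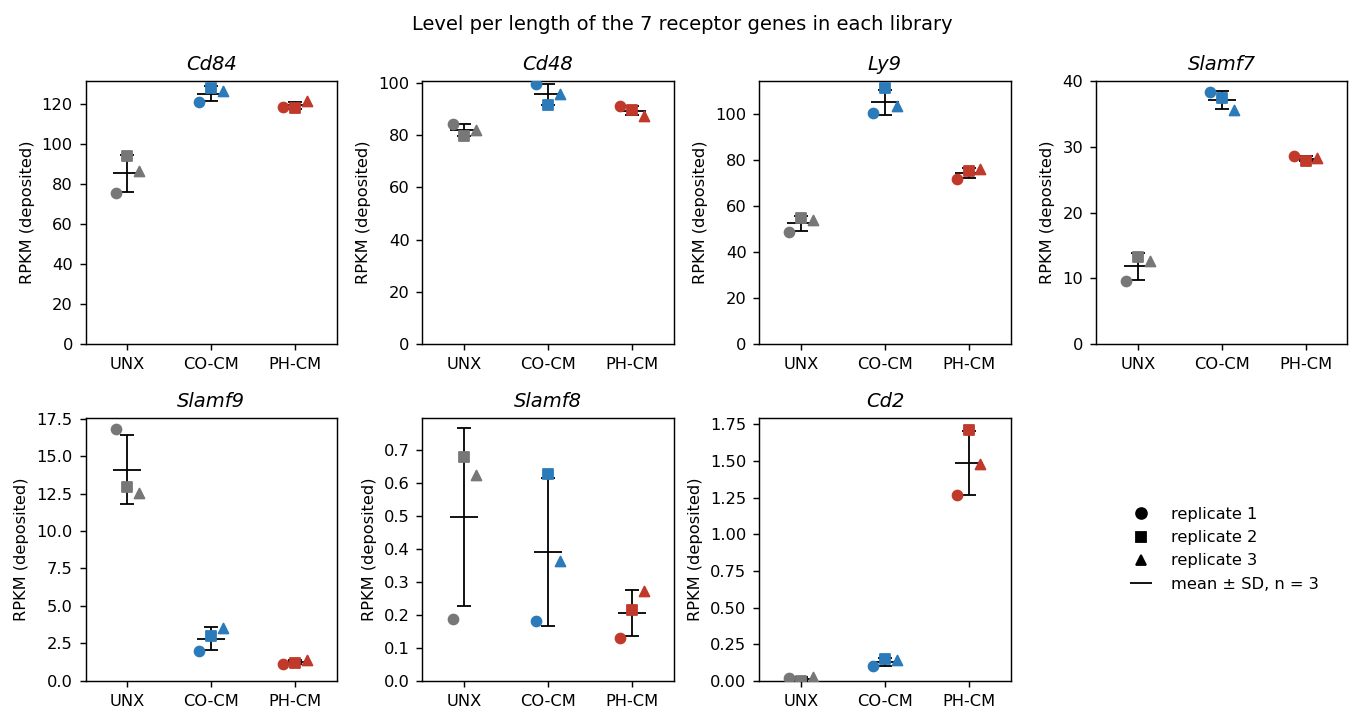
Deposited RPKM (reads scaled to exon length and library total, linear axes from 0) of the 7 genes in the 3 UNX, 3 CO-CM and 3 PH-CM libraries, with the mean and SD of each group. Cd84, Cd48, Ly9 and Slamf7 lie higher in both conditioned media than in UNX, Slamf9 lies lower, Slamf8 overlaps between groups, and Cd2 is near 0 outside PH-CM.

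Against UNX, 5 of the 7 members passed the threshold in PH-CM (an FDR up to 0.05 over all genes tested together with a fold change from 1.2 upwards), 4 higher and 1 lower. In the same comparison 63.0% of all tested genes passed, 31.3% higher and 31.7% lower. The 3 PH-CM libraries lay apart from the 3 UNX libraries for 6 members, 5 above and 1 below, against 77.7% of all tested genes. In CO-CM against UNX, 6 members passed, 5 higher and 1 lower, where 57.0% of all tested genes passed, 28.0% higher and 28.9% lower. Libraries of the 2 groups lay apart for 6 members, against 72.0% of all genes. In PH-CM against CO-CM, 4 members passed, 1 higher and 3 lower, where 27.1% of all tested genes passed, 12.2% higher and 15.0% lower, and libraries lay apart for 5 members, 1 above and 4 below, against 50.2% of all genes. Since the members were picked with these differences known, nothing is read from these counts. Cd2, counted as higher in all 3 comparisons, passed the filter only through PH-CM, where it is high. The median log2 fold change of the 7 members was 0.54, 0.62 and -0.41 in the 3 comparisons in this order, and that of all tested genes was 0.0072, 0.00024 and -0.0064. The first and second of these comparisons share the UNX libraries, and the first and the third share the PH-CM libraries.

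**Figure D2:**
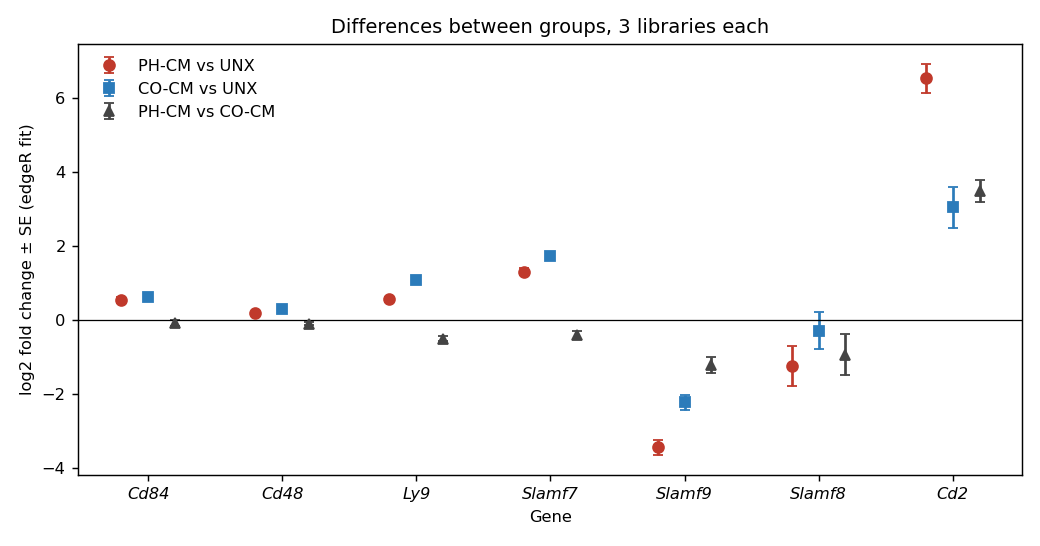
log2 fold change with its standard error from the edgeR fit of all 9 libraries, for each of the 7 genes in the 3 comparisons. Cd2 stands at 6.54 in PH-CM against UNX and Slamf9 at -3.45, while Cd84, Cd48, Ly9 and Slamf7 lie above 0 against UNX in both media and below 0 in PH-CM against CO-CM.

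Cd48, the lipid-anchored ligand of CD2 and CD244, varied least. Its level was 95.8, 92.7 and 95.6 CPM in UNX replicates 1 to 3, 118, 113 and 116 CPM in CO-CM, and 108, 109 and 106 CPM in PH-CM. The 3 groups did not overlap, with UNX lowest and CO-CM highest. The log2 fold change was 0.29 ± 0.039 (SE) in CO-CM against UNX, past the threshold, and 0.18 ± 0.039 in PH-CM against UNX, under the fold change of 1.2. The first of these falls under the same limit without UNX replicate 2, at 0.26. PH-CM differed from CO-CM by -0.11 ± 0.039 on the log2 scale, also under the limit.

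Cd2, whose product binds CD48 in the mouse, was almost absent from UNX BMDMs. It had 2, 0 and 4 reads in the UNX libraries, 12, 18 and 18 reads in the CO-CM libraries, and 148, 189 and 166 reads in the PH-CM libraries. The corresponding levels were 0.0308, 0 and 0.0465 CPM in UNX, 0.175, 0.269 and 0.253 CPM in CO-CM and 2.20, 3.04 and 2.62 CPM in PH-CM, so that no library of one group overlapped another group. Pooled over libraries and scaled to their sizes, the reads in PH-CM were 98.5 times those in UNX, with an exact 95% interval of 44.9 to 270 that covers counting error only. Because mates of a pair were counted singly by the listed settings, the interval on read pairs (252 against 3) is wider, at 33.4 to 482. CO-CM held 8.77 times the reads of UNX (2.66 to 45.5 on pairs) and PH-CM held 11.2 times those of CO-CM (7.39 to 17.9 on pairs). The fitted log2 fold change was 6.54 ± 0.40 (SE) in PH-CM against UNX, 3.05 ± 0.56 in CO-CM against UNX and 3.48 ± 0.29 in PH-CM against CO-CM. Without UNX replicate 3, the first value was 7.33 and the second 3.84. Without any one of the PH-CM libraries, Cd2 fell under the filter and could not be tested.

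Markers of the lymphocytes in which CD2 is best known were examined beside this result. Of the 7 T cell markers only Cd4 passed the filter, at 1.39 to 3.31 CPM in UNX, 6.25 to 7.84 in CO-CM and 13.2 to 17.1 in PH-CM, with a log2 fold change of 2.73 in PH-CM against UNX. The summed T cell list, nearly all of it Cd4, ran from 1.57 to 3.33 CPM in UNX, 6.50 to 8.11 in CO-CM and 13.5 to 17.3 in PH-CM. The other 6 markers together held 16 reads in UNX, 48 in CO-CM and 47 in PH-CM. Cd3e, Cd3d and Cd3g, the defining chains of the T cell receptor complex, together had 0, 2 and 2 reads in the 3 groups. Of the 5 NK cell markers, Ncr1, Nkg7, Prf1 and Gzma had 0 reads in all 9 libraries, and the list summed to at most 0.186 CPM in any library.

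Cd84, a self-binding receptor, was higher in both media. It measured 453, 577 and 534 CPM in UNX replicates 1 to 3, 758, 832 and 814 CPM in CO-CM, and 741, 756 and 775 CPM in PH-CM. All 6 libraries with conditioned medium lay above all 3 UNX libraries, while CO-CM and PH-CM overlapped. The log2 fold change was 0.54 ± 0.080 (SE) in PH-CM and 0.62 ± 0.080 in CO-CM against UNX. PH-CM differed from CO-CM by -0.081 ± 0.080, short of the threshold.

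Ly9, a self-binding receptor also known as SLAMF3, was highest in CO-CM. It measured 155, 178 and 175 CPM in UNX, 332, 381 and 352 CPM in CO-CM, and 237, 255 and 256 CPM in PH-CM. The 3 groups did not overlap, and PH-CM lay between the other two. The log2 fold change against UNX was 1.07 ± 0.069 (SE) in CO-CM and 0.56 ± 0.069 in PH-CM, and PH-CM lay below CO-CM by -0.51 ± 0.069.

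Slamf7, the self-binding receptor tied to phagocytosis, had the same order of groups. It measured 41.8, 59.5 and 56.9 CPM in UNX, 175, 178 and 167 CPM in CO-CM, and 130, 130 and 132 CPM in PH-CM. Again the groups did not overlap and PH-CM stood between UNX and CO-CM. The log2 fold change against UNX was 1.72 ± 0.11 (SE) in CO-CM and 1.31 ± 0.11 in PH-CM, and PH-CM lay below CO-CM by -0.41 ± 0.10. Of the exon bases of Slamf7, 423 (9.24%) also belong to the antisense gene Gm37787. The featureCounts settings listed in the methods name no strand option and no option to count reads that overlap several genes. By default strand is ignored and such reads are counted for no gene, so reads there may be missing from Slamf7.

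Slamf9, a short-tailed receptor without a known ligand, was the only member lower in both media by the threshold. It measured 21.0, 16.6 and 16.2 CPM in UNX, 2.60, 4.06 and 4.73 CPM in CO-CM, and 1.44, 1.64 and 1.83 CPM in PH-CM. The groups did not overlap, and PH-CM was lowest. The log2 fold change was -3.45 ± 0.21 (SE) in PH-CM against UNX, -2.24 ± 0.19 in CO-CM against UNX and -1.22 ± 0.22 in PH-CM against CO-CM. It is the one member that fell into the order UNX, CO-CM, PH-CM from high to low without overlap, while Cd2 had the opposite order.

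Slamf8, the short-tailed receptor tied to the oxidase, was scarce and uneven. It had 36, 155 and 162 reads in UNX replicates 1 to 3, 38, 134 and 82 reads in CO-CM, and 27, 42 and 54 reads in PH-CM, or 0.555, 2.05 and 1.88 CPM, then 0.555, 2.00 and 1.15 CPM, then 0.401, 0.675 and 0.853 CPM. Replicate 1 was lowest in each group, and the groups overlapped. The log2 fold change was -1.24 ± 0.54 (SE) in PH-CM against UNX, -0.29 ± 0.50 in CO-CM against UNX and -0.94 ± 0.55 in PH-CM against CO-CM, none past the threshold. With the replicate number as a block, the first and the third value were -1.16 and -0.88 and both passed. Without UNX replicate 1 the first value was -1.62 and passed, and it also passed without CO-CM replicate 1 or 2, at -1.24 each time. Without CO-CM replicate 1 the second value turned to 0.056, and without CO-CM replicate 2 the third was -0.42.

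**Figure D3:**
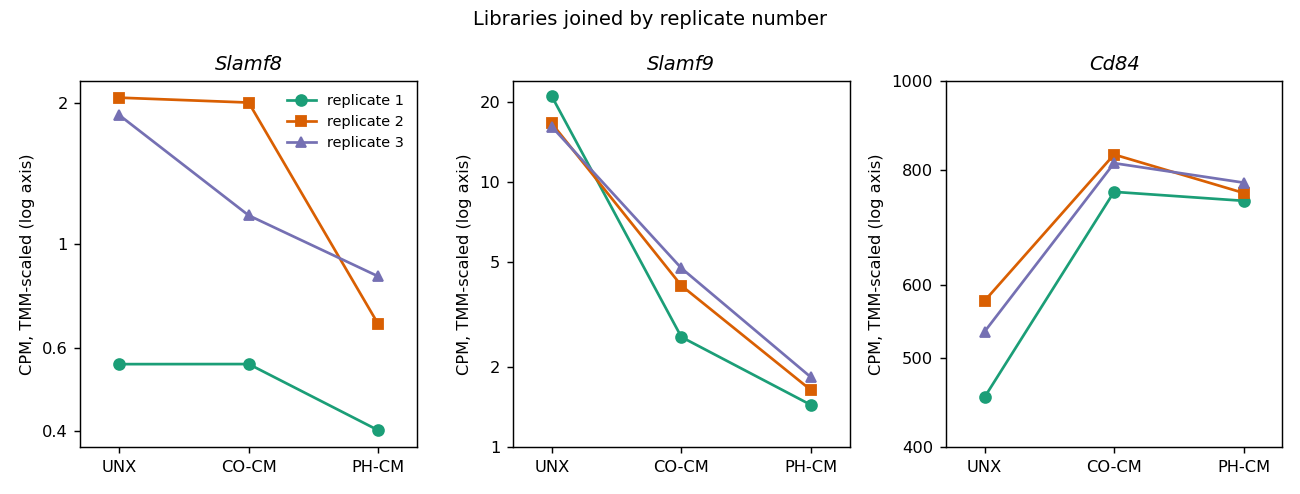
CPM scaled by TMM, a correction for library composition, on log axes for Slamf8, Slamf9 and Cd84, with libraries of the same replicate number joined across UNX, CO-CM and PH-CM. Replicate 1 is lowest for Slamf8 in every group, and for Slamf9 it is highest in UNX but lowest in both media.

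Across the 9 libraries, which fall into 3 groups by treatment, the log2 levels of Cd84, Slamf7, Ly9 and Cd48 ran together, with Pearson correlations of 0.98 for Cd84 with Slamf7, 0.96 for Slamf7 with Ly9 and 0.92 for Cd84 with Ly9. Cd48, the ligand, correlated with Slamf7 at 0.94, with Ly9 at 0.94 and with Cd84 at 0.86, and with Cd2 at 0.52. Cd2 and Slamf9 ran opposite to each other (-0.92). All of these points share libraries and groups, so the values describe the pattern only.

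For each member, the 3 tested genes with the smallest root mean square difference in log2 CPM, each gene centred on its own mean over the 9 libraries, were named. Nearest to Cd2 were Myom1 (0.44), Ms4a4a (0.52) and Ifitm1 (0.56). Nearest to Slamf9 were Fancd2 (0.16), a protein of DNA crosslink repair, Pimreg (0.17) and Chtf18 (0.18). The genes nearest to Cd48 were Pip4k2c, Tlk1 and Nprl3, those nearest to Cd84 were Nub1, Ap3s1 and Mnt, and those nearest to Slamf7 were Creg2, C77080 and the lysosomal gene Psap. Ly9 lay nearest to S100a1 (0.031), 1810058I24Rik and Apobec1, and Slamf8 to Rasal1 (0.39), Map4k1 and Ankrd37. These distances depend on how much a member varies. The root mean square deviation from its own mean was 2.37 for Cd2, 1.44 for Slamf9, 0.82 for Slamf8 and 0.44 for Ly9. Pearson correlations were 0.99 for Cd2 with Myom1 and 0.88 for Slamf8 with Rasal1, so the match of Slamf8 was the looser one.

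In all, 6 of the 7 genes lie together on mouse chromosome 1 (GRCm38, GENCODE annotation). In order they are Ly9 (chr1:171588624-171607410, minus strand), Slamf7 (chr1:171632403-171653035, minus), Cd48 (chr1:171682009-171705258, plus), Cd84 (chr1:171839697-171890718, plus), Slamf9 (chr1:172475358-172478575, plus) and Slamf8 (chr1:172581758-172590568, minus). Cd2 lies apart on chromosome 3 (chr3:101275899-101287939, minus strand). The 4 genes that were higher in CO-CM, from Ly9 to Cd84, cover 302.1 kb, and a gap of 584.6 kb separates them from Slamf9 and Slamf8. Ly9 overlaps Cd244, which lies on the opposite strand, with no shared exon bases.

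The stretch around these 6 members holds 49 annotated genes, of which 28 are protein-coding and 19 were tested. Among the 13 tested genes that are not members, 8 passed in PH-CM against UNX, 4 higher and 4 lower (61.5%), 5 passed in CO-CM against UNX (38.5%) and 3 in PH-CM against CO-CM (23.1%). These shares stood beside 63.0%, 57.0% and 27.1% of all tested genes. Igsf9, an immunoglobulin superfamily gene next to Slamf9, had a mean of 2.59 CPM in UNX, 0.803 in CO-CM and 0.299 in PH-CM. It passed the filter on low counts through the UNX libraries alone, where it is high. Its log2 differences from UNX of -3.12 ± 0.36 (SE) in PH-CM and -1.69 ± 0.31 in CO-CM are therefore given with no test. The counts above include Igsf9 among the genes that passed in all 3 comparisons. Its difference between the media (-1.43, FDR = 0.0147, edgeR) lost the threshold without either of CO-CM replicates 2 and 3 or of PH-CM replicates 1 and 3, at -1.15 to -1.33. Cfap45, which lies between Slamf9 and Slamf8, went the other way in PH-CM, with log2 fold changes of 1.33 against UNX and 1.13 against CO-CM. Beside Cd2 on chromosome 3, Ptgfrn, which encodes a tetraspanin partner, rose from 2.20 CPM in UNX to 13.0 in CO-CM and 21.9 in PH-CM (log2 fold changes of 2.57 and 3.31, edgeR FDR = 6.79e-09 and 1.26e-09). Of the 5 genes in that stretch, Cd2 included, 4 were tested, and Ptgfrn is the only neighbour described.

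**Figure D4:**
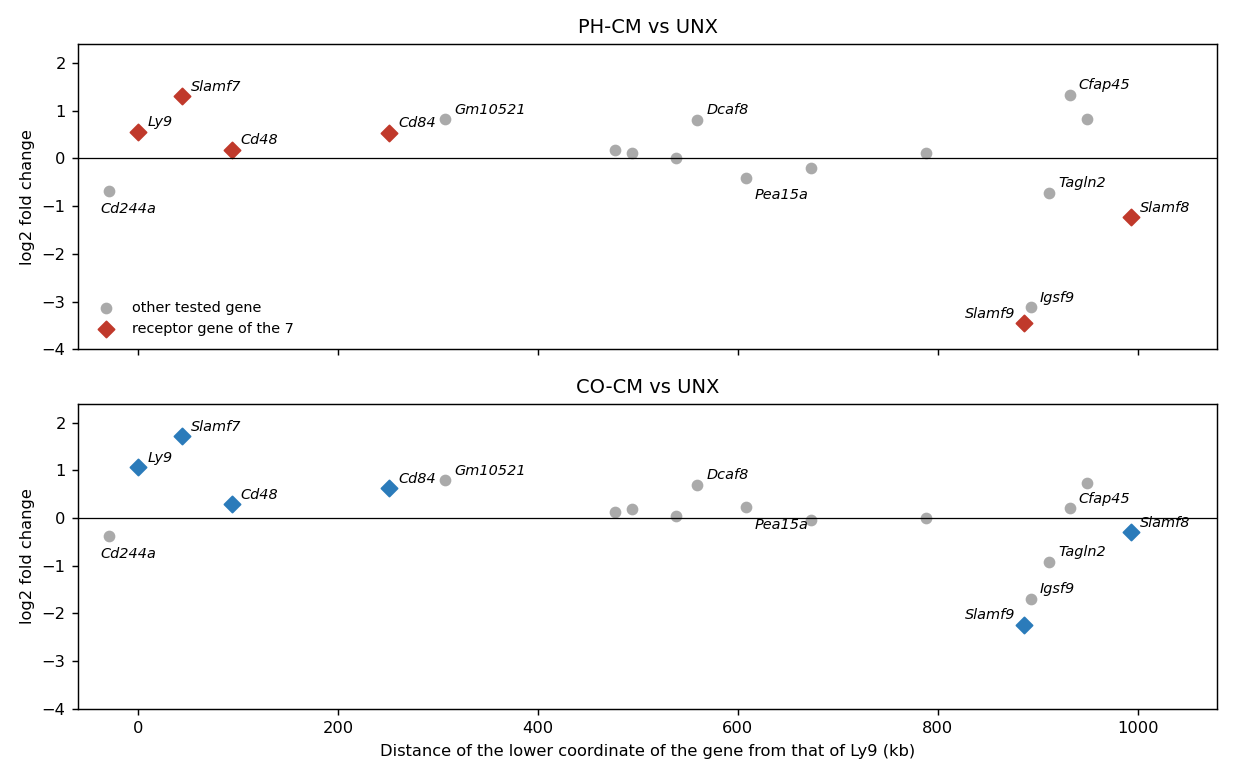
log2 fold change against UNX of the 19 tested genes in the chromosome 1 stretch, PH-CM above and CO-CM below, by distance in kb of each gene's lower-coordinate end from that of Ly9. Receptor genes of the 7 are diamonds and other genes grey circles, with Cd244 under its annotation name Cd244a. Ly9, Slamf7, Cd48 and Cd84 lie above 0 on the left, where Cd244a lies below 0 in both panels. Gm10521 and Dcaf8, which are not among the 7, also lie above 0 in both. Slamf9 and its neighbour Igsf9 stand lowest on the right.

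Genes that act with these receptors were examined from a list of 38, of which 31 were tested. In PH-CM against UNX 11 rose and 2 fell, in CO-CM against UNX 11 rose and 4 fell, and in PH-CM against CO-CM 8 rose and 3 fell, by the edgeR quasi-likelihood test at the same limits. These were 41.9%, 48.4% and 35.5% of the tested partner genes, beside 63.0%, 57.0% and 27.1% of all tested genes. Their median log2 fold changes were 0.12, 0.069 and 0.065. The list was written with earlier results of these data known.

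Of the 3 other receptors on the list, only Cd244, the second receptor for CD48, was tested. It measured 2.67 to 3.43 CPM in UNX, 2.06 to 2.64 in CO-CM and 1.74 to 2.28 in PH-CM, and it fell by 0.68 ± 0.16 (SE) on the log2 scale in PH-CM (FDR = 0.00322, edgeR). The value of -0.38 ± 0.16 in CO-CM did not pass (FDR = 0.0555, edgeR), and it passed under 7 of 21 alternatives, among them the edgeR exact test, no filter, and leaving out UNX replicate 2 (-0.50) or PH-CM replicate 2 (-0.38). Slamf6 lay at a mean of 0.337 CPM in UNX, 0.668 in CO-CM and 0.832 in PH-CM and Slamf1 at a mean of no more than 0.0682 CPM in any group, and neither was tested. Of the adaptors, Sh2d1a (SAP) had 0 reads in all 9 libraries, so that it was not detectable at this depth, and Sh2d1b2 had at most 0.0561 CPM. Sh2d1b1, which encodes EAT-2, was present at 3.13 to 3.74 CPM in UNX, 3.62 to 6.12 in CO-CM and 2.59 to 3.41 in PH-CM. It rose by 0.59 ± 0.19 in CO-CM against UNX (FDR = 0.0181), a call that was lost without UNX replicate 1 or 3 or CO-CM replicate 2 or 3 (0.44 to 0.56), and it was lower in PH-CM than in CO-CM (-0.82 ± 0.19, FDR = 0.00764, edgeR).

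Of the 8 tested tyrosine kinases, 3 rose and 1 fell in PH-CM against UNX, and 3 rose and 2 fell in CO-CM, or 50.0% and 62.5% beside 63.0% and 57.0% of all tested genes. Fyn, the Src family kinase that couples to SAP, fell from 98.1 to 106 CPM in UNX to 61.2 to 63.3 in CO-CM and 48.8 to 53.7 in PH-CM, with log2 fold changes of -0.70 ± 0.050 and -0.99 ± 0.050 (FDR = 6.77e-07 and 3.87e-08, edgeR). Lyn fell in CO-CM by 0.84 on the log2 scale (FDR = 7.76e-07, edgeR), whereas its difference of -0.24 in PH-CM was under the fold change threshold. Syk, a kinase downstream of many activating receptors, rose from a mean of 343 CPM in UNX to 631 in CO-CM and 777 in PH-CM (0.88 and 1.18, FDR = 3.84e-07 and 3.13e-08, edgeR). Fgr rose by 2.18 in CO-CM and 1.86 in PH-CM from a mean of 1.78 CPM, and Src by 0.90 and 1.46. Btk, a kinase of myeloid and B cells, did not pass in any comparison.

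Among the 4 phosphatases, Ptprc (CD45) rose in both media (0.47 in CO-CM and 0.74 in PH-CM, edgeR FDR = 7.07e-06 and 1.66e-07). Inpp5d, which encodes the inositol phosphatase SHIP1 recruited by several family members, rose in PH-CM against UNX (0.56, FDR = 0.000114) and against CO-CM (0.52, FDR = 0.000676, edgeR), with a value of 0.04 in CO-CM against UNX. Ptpn6 and Ptpn11, which encode SHP-1 and SHP-2, did not pass in any comparison. Ptpn6 at -0.23 in PH-CM and Ptpn11 at -0.26 in CO-CM against UNX missed the fold change limit alone (FDR = 0.00279 and 0.00096, edgeR). Of 6 tested signalling genes, 0 passed in PH-CM against UNX by edgeR's quasi-likelihood test, its exact test or DESeq2 (2 had an unadjusted p under 0.05). Those 2, Plcg1 and Grb2, had an FDR of 0.00547 and 0.0218 (edgeR). Their log2 fold changes of 0.22 and 0.23 were under the fold change limit. Of the 6 genes, 1 passed in PH-CM against CO-CM and 3 passed in CO-CM against UNX. In these comparisons, in the order named, 63.0%, 27.1% and 57.0% of all tested genes passed. In CO-CM against UNX, the exchange factor gene Vav3 fell by 0.84 on the log2 scale (FDR = 1.37e-06, edgeR) and the adaptor genes Grb2 and Sh3bp2 rose by 0.46 and 0.29. Of the 3 genes for proteins that bind the CD2 tail, Pstpip1 rose in PH-CM against UNX and against CO-CM (0.49 and 0.52, edgeR FDR = 0.000517 and 0.00114). Cd2ap fell in CO-CM against UNX (-0.35, edgeR FDR = 4.47e-05). Its value of -0.26 in PH-CM against UNX missed the fold change limit alone (FDR = 0.000313, edgeR).

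Of 8 genes for phagocytosis and oxidase partners, 5 rose in PH-CM against UNX and 4 in CO-CM, and 0 fell in either. The shares that passed were thus 62.5% and 50.0%, beside 63.0% and 57.0% of all tested genes in either direction. Of all tested genes, 31.3% and 28.0% rose. Itgam, the integrin chain of Mac-1 with which SLAMF7 has been linked, measured 97.4 to 116 CPM in UNX, 75.6 to 99.9 in CO-CM and 157 to 189 in PH-CM. It rose in PH-CM by 0.72 ± 0.11 (SE) against UNX and 0.94 ± 0.11 against CO-CM (FDR = 0.000159 and 0.000114, edgeR). Slamf7 thus stood highest in CO-CM and Itgam in PH-CM. Tyrobp, which encodes the adaptor DAP12, rose in both media (0.66 in CO-CM and 0.55 in PH-CM, edgeR FDR = 1.29e-05 and 3.69e-05). Cybb, the catalytic chain of the oxidase that SLAMF8 is known to restrain, rose from 217 to 266 CPM in UNX to 659 to 829 in CO-CM (1.56 ± 0.14, FDR = 4.14e-06, edgeR), and stood at 195 to 279 CPM in PH-CM (0.01 ± 0.14 against UNX, FDR = 0.961, and -1.55 ± 0.14 against CO-CM, FDR = 1.83e-05, edgeR). Uvrag, a gene of a lipid kinase complex of autophagy and phagocytosis, rose in PH-CM against both other groups (0.70 against UNX and 0.63 against CO-CM, edgeR FDR = 3.05e-07 and 4.77e-06).

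**Figure D5:**
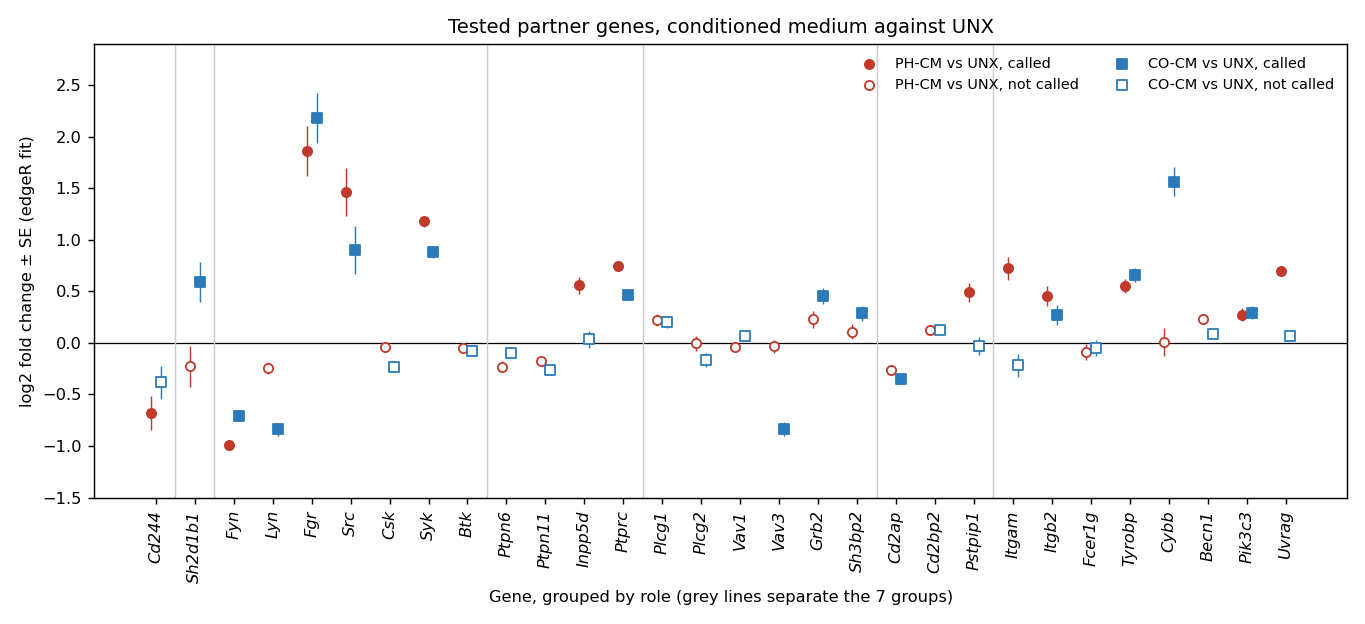
log2 fold change against UNX with its standard error for the tested partner genes, 1 of which is not shown, circles for PH-CM and squares for CO-CM, filled where the gene passed both limits (FDR 0.05, fold change 1.2). Fgr, Src and Syk lie highest among the kinases and Fyn below 0 in both media, while Cybb stands at 1.56 in CO-CM and 0.01 in PH-CM.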

How the data were processed

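RNA-Seq of 9 BMDM libraries was analysed, grouped by the treatment and replicate number in the labels. The authors used FastQC and AfterQC for quality control and trimming, STAR for alignment to GRCm38 and featureCounts 1.6.2 with an Ensembl annotation for counting. The deposited read counts are whole and not normalized. In each library 81.4% to 83.8% of counts under 20 were even. The deposited RPKM values are those counts, scaled by the authors to exon length and library total. The listed featureCounts settings name neither a strand nor a pair option, and the defaults ignore strand and count mates singly. Columns holding the authors' own comparisons (fold changes and p-values) were not used.

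edgeR 4.0.16 was used in R 4.3.3. TMM factors were computed on genes with a CPM above 1 in 3 or more libraries, and one quasi-likelihood fit of all 9 libraries gave log2 fold changes, SE and Benjamini-Hochberg FDR over all tested genes. Calls required an FDR up to 0.05 together with a fold change from 1.2 upwards. The fit was tested on simulated data. An exact permutation test of 3 against 3 libraries cannot go below 0.10, so none was used. The p-values measure the spread between repeated cultures.

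Named genes were the 7 members, a list of 38 partner genes (1 of them enters the counts but is not reported here by name), the 3 genes closest in pattern to each member (log2 CPM, prior count of 2), and genes beside them by position. Members and lists were chosen with earlier results of these data known. Same-numbered libraries of different groups deviated together (correlations of 0.334 to 0.535), so replicate numbers were taken to pair them, and a block on the number was tried. The main fit, which gave the printed SE and FDR values, had no such block and so ignores this pairing. Other alternatives were the edgeR exact test, DESeq2 1.42.0, other normalizations and filters, other fold thresholds and leaving out each library. Where a symbol stood on several rows, the row with most reads was kept.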

Additional observations from a re-analysis of the deposited data

How the results depend on the processing

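A fold change of at least 2 left 3 members called in PH-CM against UNX and 2 in PH-CM against CO-CM, and 3, 2 and 1 partner genes in PH-CM against UNX, CO-CM against UNX and PH-CM against CO-CM, where 2153, 1655 and 612 of all genes were called. With no fold threshold, 21 partner genes were called in PH-CM against UNX. Leaving out one library at a time gave 4 to 6, 5 to 6 and 3 to 4 called members in these comparisons, 12 to 16, 12 to 16 and 10 to 12 partner genes, and 7222 to 7558, 6440 to 6757 and 2764 to 3376 of all genes. The low counts of 4 and 3 members came only from runs without a PH-CM library, in which Cd2 was untested and 6 members remained. The main fit called 5, 6 and 4 of 7 members and 7534, 6806 and 3244 of 11950 genes. With the replicate block, 6, 6 and 5 members, 13, 15 and 12 partner genes and 7714, 7037 and 3632 of all genes were called. Among members the block changed only the calls of Slamf8, to -1.16 in PH-CM against UNX and -0.88 in PH-CM against CO-CM. Slamf8 reversed in CO-CM against UNX without CO-CM replicate 1, with a range of -0.82 to 0.056 over the left-out libraries, and the cause was not tested. It passed in PH-CM against UNX under 8 of 20 alternatives. Cd48 in CO-CM against UNX lost its call with library size alone (0.22), no filter (0.25), filterByExpr (0.26), without UNX replicate 2 (0.26) and at a fold of 2. Of 21 member results, 10 kept direction and call under every alternative in which the gene could be tested. The Cd2 results are among these, with 18, 17 and 18 alternatives in the comparisons, where other results had up to 21. A call lost at a fold of at least 2 follows from the size of the fold change alone. The tally is therefore no measure of how robust the members are. Cd2 could not be tested without any one PH-CM library or in the fit of CO-CM and UNX alone, nor Slamf8 in fits of PH-CM with one other group. Depth limits Cd2 in UNX, with 6 reads in all, and Slamf8.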
